A study of Mus musculus with 16 samples.

Results

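Goblet1 is a class of mucus-secreting epithelial cells in single-cell RNA-seq of mouse transverse colon, taken here as all cells that the deposited annotation labels Goblet1. It held 238 of the 22717 cells and of the 10373 epithelial cells, beside 168 cells labelled Goblet2 and 1008 labelled BasalGoblet. The 16 mice were C57BL/6 females, aged 7 weeks, and each was 1 library. Uninjured mice received no dextran sodium sulfate (DSS), a polymer that injures the colonic epithelium and causes colitis. All other mice drank 4% DSS throughout and were given, on day 4, 10 mg/kg of either an anti-GFP antibody, a control with no target in the mouse, or SZN-1326-p, an activator of Wnt signaling that acts through particular Frizzled (FZD) receptors. Colons were collected 24 h or 48 h after dosing, per time from 2 uninjured mice and from 3 mice of each DSS group. The uninjured mice were not given the control antibody, so the comparison called DSS below holds DSS and that antibody together. No untreated DSS group and no SZN-1326-p group without DSS was analysed here.

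Goblet cells make the mucus that separates the colonic epithelium from bacteria. Their main product is the gel-forming mucin Muc2, a protein that is folded in the endoplasmic reticulum, heavily O-glycosylated in the Golgi and stored in granules. Fcgbp, Clca1, Zg16 and Tff3 are secreted with it: Fcgbp is a mucus-bound protein, Clca1 a metalloprotease that processes the mucus, Zg16 a lectin that binds Gram-positive bacteria, and Tff3 a trefoil peptide linked to epithelial repair. Goblet cells arise from stem cells at the crypt base, mature as they move up the crypt and are shed at the surface. Wnt signals are strongest at the crypt base and bone morphogenetic protein (BMP) signals toward the surface.

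The label matched its markers. Muc2 was detected in 238 of the 238 Goblet1 cells, and Fcgbp and Clca1 in 237 each. The mean levels over these cells were 577 normalized UMIs (unique molecular identifiers, 1 per captured RNA molecule) per cell for Muc2, 474 for Fcgbp and 479 for Clca1. In GENCODE vM21 (GRCm38) these protein-coding genes lie at chr7:141690340-141754693 on the plus strand, chr7:28071236-28120862 on the plus strand and chr3:145003817-145032776 on the minus strand. Over the 29 non-epithelial types of the annotation the highest type means were 5.35, 1.24 and 1.04. Other cells held Muc2 UMIs too: 45.9% of stromal cells had a Muc2 UMI, at a median depth of 7986 UMIs per cell against 7074 in Goblet1. Whether these came from free RNA or another source was not tested. Shares of cells with a UMI are therefore not used below, and levels are means of normalized UMIs per cell.

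Goblet1 cells were shallow compared with Goblet2 cells. Their median was 7074 UMIs and 1742 genes per cell, against 29381.5 UMIs and 4749.5 genes in Goblet2 and 8242.5 UMIs and 2201.5 genes in BasalGoblet. Mitochondrial UMIs made up 25.4% of the median Goblet1 cell, 8.34% in Goblet2 and 35.3% in BasalGoblet, and 85 Goblet1 cells were above 30%. At least 2 of 9 marker genes of other lineages were found in 2 Goblet1 cells, and doublet handling by the authors is not given in the sources used here. Whole libraries held 9616512 to 21335421 UMIs in 936 to 2033 cells. Of 129 cells whose barcode also occurred in another library, 1 was a Goblet1 cell and no pair were both Goblet1. By a comparison of long and short genes in stroma, 4 libraries leaned toward long genes by more than 0.2 on the log2 scale (0.243 for the uninjured mouse 1, 0.496 and 0.400 for the anti-GFP mice 1 and 2, and 0.324 for the SZN-1326-p mouse 1, all at 24 h). A term for these libraries gave 45 calls for DSS and 8 for SZN-1326-p, where 28 and 6 are reported below. The median mitochondrial share of SZN-1326-p libraries was 18.9% for mouse 2 at 24 h and 24.1% for mouse 3 at 48 h, against 6.54% to 9.66% in the others of that group.

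Goblet1 and BasalGoblet had similar Muc2 and very different levels of its secreted partners Clca1, Zg16, Fcgbp and Tff3. These are descriptions with no test, since the types were made from the same expression values. In the 10 mice with at least 10 cells of both types, Muc2 averaged 587 ± 145 normalized UMIs per cell (SD, n = 10) in Goblet1 and 651 ± 156 in BasalGoblet, and it was higher in Goblet1 in 1 of the 10. Clca1 averaged 467 ± 231 in Goblet1 and 10.6 ± 9.64 in BasalGoblet. Its median within-mouse log2 difference was 5.63, with a range of 3.91 to 8.22, so no mouse had similar levels in both types.

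Zg16 (880 ± 407 against 35.1 ± 42.6), Fcgbp (475 ± 163 against 23.4 ± 16.5) and Tff3 (172 ± 103 against 7.82 ± 5.27) followed the same pattern and were higher in Goblet1 in all 10 mice. Other secreted proteins were also higher in Goblet1 than in BasalGoblet. The protease inhibitor Spink1 averaged 36.0 ± 21.0 against 0.454 ± 0.278, the acute-phase protein Saa1 13.3 ± 10.9 against 0.448 ± 0.255, and the antimicrobial ribonuclease Ang4 12.0 ± 14.6 against 0.430 ± 0.624. Goblet2 held Spink1 and Ang4 too. In mice with at least 10 cells of Goblet1 and Goblet2, Spink1 was at 21.0 to 73.8 in Goblet1 and 10.4 to 54.6 in Goblet2. Ang4 was at 0.912 to 18.8 in Goblet1 and 0.811 to 40.7 in Goblet2 of these mice. The remaining named genes on the Goblet1 side were Slfn4, Cyp2d34, Cldn4, Hsd17b2, Mxd1, Cyp2d12, Fer1l6 and Cdkn1a, with median log2 differences of 3.29 down to 2.82. Cldn4 is a tight junction claudin, Cdkn1a the cell cycle inhibitor p21, and Mxd1 a repressor that competes with Myc for its partner Max.

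Atoh1, which commits cells to the secretory fate, averaged 1.67 ± 0.419 in Goblet1 and 1.47 ± 0.432 in BasalGoblet and was higher in Goblet1 in 6 of 10 mice. Spdef, which drives goblet maturation, averaged 2.31 ± 0.733 against 4.59 ± 1.06 and was higher in Goblet1 in 1 of 10 mice. The largest differences in the other direction were in the long noncoding RNA Meg3 (1.51 ± 1.57 against 19.3 ± 11.4, median log2 difference -3.51), the sialic acid hydroxylase Cmah (-3.00) and C2cd4b (-2.71). The potassium channels Kcnh3 (-2.46) and Kcnn4 (-2.17), the guanylin family peptide Guca2b (-2.11), the epithelial factor Ehf (-2.01) and the paracellular cation channel claudin Cldn2 (-1.88) were also lower in Goblet1. Genes named by size in this comparison were taken only from those with the same direction in all 10 mice.

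By gene list, Goblet1 had the higher median level for 17 of 23 measured mucus components and 15 of 18 interferon response genes, with list medians of 0.56 and 0.64 against -0.20 over the 8397 genes compared. It had the lower level for 16 of 17 mitosis genes (median -0.86), 15 of 16 DNA replication genes (-0.67), 25 of 26 ribosome biogenesis genes (-0.63), 7 of 8 Wnt target and feedback genes (-0.98) and 6 of 6 stem and transit-amplifying markers (-1.01). Mki67, a proliferation marker, averaged 0.194 ± 0.238 in Goblet1 and 0.861 ± 0.615 in BasalGoblet. Of 1647 genes with at least 1 normalized UMI per cell in either type, 159 were higher and 132 lower in Goblet1 in every mouse. Scaling to non-mitochondrial UMIs moved the median over all genes from -0.20 to -0.46. Colonocyte markers were higher in Goblet1 for 11 of 17 genes, and their part in these differences was not tested.

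**Figure D1:**
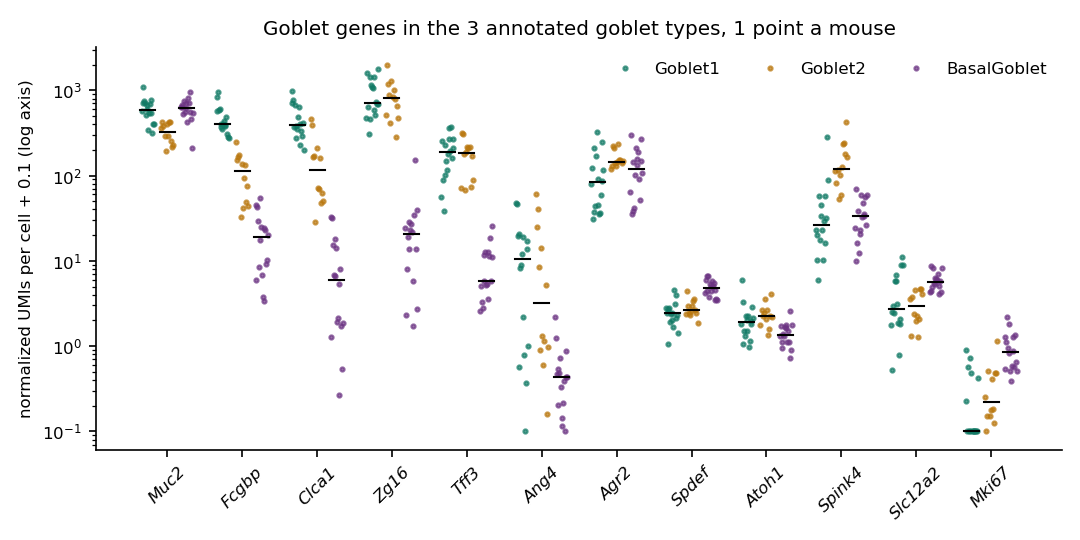
Mean normalized UMIs per cell plus 0.1, on a log axis, of 12 goblet cell genes in Goblet1, Goblet2 and BasalGoblet; each point is 1 mouse and the black bar is the median. Clca1, Fcgbp, Zg16 and Tff3 lie far lower in BasalGoblet, while Muc2 lies at similar levels in Goblet1 and BasalGoblet.

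Goblet1 had more Muc2, Clca1 and Fcgbp than Goblet2, and similar Zg16 and Tff3. Only 5 mice, none of them given anti-GFP antibody, held 10 cells of both types. In these, Muc2 averaged 510 ± 138 in Goblet1 and 298 ± 91.4 in Goblet2 (median log2 difference 0.82), Clca1 410 ± 161 against 124 ± 79.8 (1.61) and Fcgbp 372 ± 63.2 against 110 ± 67.0 (1.67), each higher in Goblet1 in 5 of 5 mice. Zg16 was at a median log2 difference of 0.30 and Tff3 at 0.50, with ranges that included 0. Spink4, a goblet cell protease inhibitor, was lower in Goblet1 in every one of these mice (40.2 ± 30.4 against 98.9 ± 45.5). Sytl2, a Rab27 effector of granule exocytosis, was higher in Goblet1 in 5 of 5 (median log2 difference 1.37).

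Genes were then ranked if they had at least 1 normalized UMI per cell in the higher type and the same direction in all 5 mice. Of these, those furthest toward Goblet1 against Goblet2 were Slfn4 (median log2 difference 3.93), Cyp2d12 (3.28), Cyp2d34 (3.01), Mxd1 (2.55) and the nuclear noncoding RNA Malat1 (2.35, 494 ± 110 against 95.8 ± 16.7). The long myosin Myo15b (2.23), the laminin chain Lamb3 (2.20) and the mitochondrial leucyl-tRNA synthetase Lars2 (1.89) followed. Those furthest toward Goblet2 began with Lamtor2 of the lysosomal Ragulator complex (-2.73), Tceal8 (-2.63), Ost4 of the oligosaccharyltransferase (-2.45), Mrpl36 of the mitochondrial ribosome (-2.33), Mcee (-2.32), Brk1 of the actin-regulating WAVE complex (-2.27) and the ubiquitin-like Ufm1 (-2.25). They went on with the translocon subunit Sec61b (-2.19), Chchd1 (-2.12), Mien1 (-2.08), Tmem258 (-2.05), Srp19 of the signal recognition particle (-1.97), the ATP synthase subunit Atp5e (-1.96), Eif3g (-1.94) and Tmem256 (-1.92). By list, Goblet1 had the higher level for 23 of 26 mucin O-glycosylation genes (median 0.47) and 19 of 29 endoplasmic reticulum folding genes (0.26), and the lower level for 26 of 27 oxidative phosphorylation genes (-0.72) and 85 of 87 cytosolic ribosomal protein genes (-1.29), against -0.09 over all genes. All 13 mitochondrially encoded genes were higher in Goblet1 (median 1.69). The median depth of these types differed as given above, and its part in these differences was not tested.

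**Figure D2:**
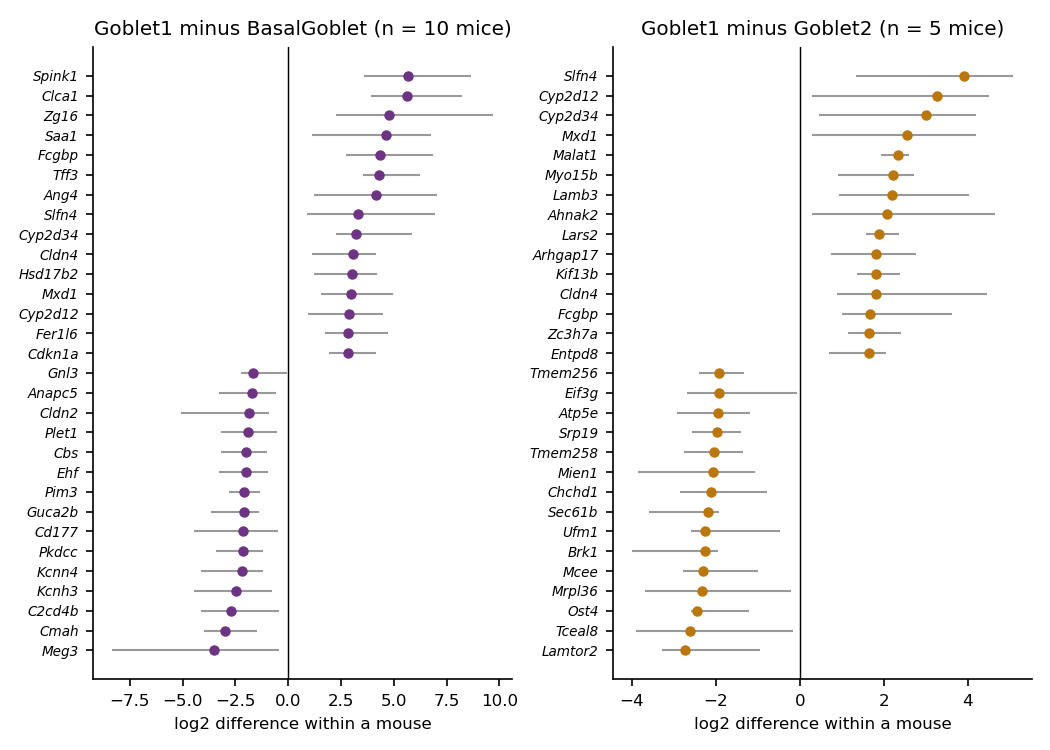
Within-mouse log2 difference of the 15 genes furthest in each direction, as the median over mice (point) with the full range (line), for Goblet1 minus BasalGoblet (10 mice, left) and Goblet1 minus Goblet2 (5 mice, right). Only genes with the same direction in every mouse were eligible. On the left the medians run from -3.51 for Meg3 to 5.69 for Spink1, with mucus genes among the largest, and on the right from -2.73 for Lamtor2 to 3.93 for Slfn4.

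The share of Goblet1 cells in the epithelium did not change detectably with DSS or with SZN-1326-p. Goblet1 made up 1.74% ± 1.03 of epithelial cells in uninjured mice (SD, n = 4), with values of 3.20%, 0.769%, 1.38% and 1.62%. It made up 3.34% ± 1.75 in anti-GFP mice (n = 6), with 1.09%, 3.08% and 4.84% at 24 h and 3.40%, 1.88% and 5.73% at 48 h, and 2.40% ± 1.83 in SZN-1326-p mice (n = 6), with 1.63%, 1.87% and 5.50% at 24 h and 1.76%, 0.223% and 3.40% at 48 h. All 3 groups overlapped. The log2 difference was 0.96 for anti-GFP against uninjured (two-sided exact permutation test of labels within time, p = 0.14, smallest possible 0.01) and -0.74 for SZN-1326-p against anti-GFP (p = 0.31, smallest possible 0.005). As a share of the 3 goblet types Goblet1 held 11.0% ± 2.88, 20.8% ± 11.4 and 19.5% ± 10.5 in the same order, with p = 0.19 and p = 0.965 by the same exact permutation test. As a share of all cells Goblet1 was at 1.16% ± 0.807 in uninjured and 0.950% ± 0.594 in anti-GFP mice, so that the DSS difference turned to -0.22 (exact permutation p = 0.69). Epithelium and lamina propria were dissociated separately and sorted, and the shares describe recovered cells.

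**Figure D3:**
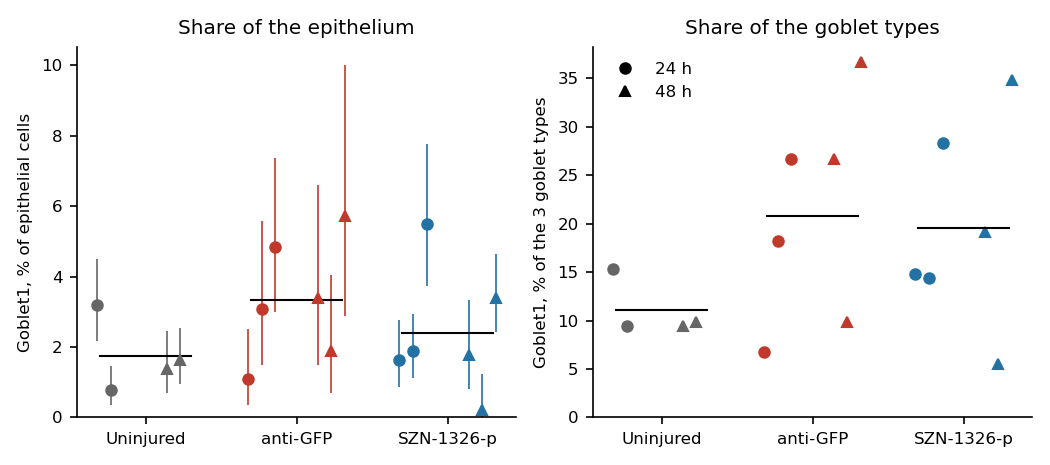
Goblet1 cells as a percentage of epithelial cells (with 95% exact binomial intervals, counting error only) and of the 3 goblet types, 1 point per mouse, circles at 24 h and triangles at 48 h, with a line at each group's mean. The groups overlap in both panels, and the lowest value is the SZN-1326-p mouse with 1 Goblet1 cell.

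DSS was examined across genes in the 10 mice with at least 10 Goblet1 cells: 3 uninjured mice, 3 given anti-GFP and 4 given SZN-1326-p. The DSS change is the mean of the differences at 24 h and 48 h. At 24 h the anti-GFP mice 2 and 3 were set against the uninjured mouse 1. At 48 h the anti-GFP mouse 3 was set against the uninjured mice 1 and 2. At each time, therefore, 1 of the groups compared held 1 mouse. Id1, Id2, Id3 and Smad7, known targets of BMP signals, fell. The antimicrobial gene Reg3b, the lipopolysaccharide-binding protein Lbp and the surface genes Muc1, Cd38 and Ly6a rose, while Muc2 and its main secreted partners did not pass the test. Of 7510 genes tested, 28 passed an adjusted p under 0.05 (limma with Benjamini-Hochberg adjustment), which is 0.373% of the genes. Of these, 10 were higher (0.133%) and 18 lower (0.24%) in anti-GFP mice. At an unadjusted p under 0.05 there were 701. Without the anti-GFP mouse 3 at 24 h there were 45 calls, 35 of them lower. With voom weights 12 were higher and 8 lower, so the split by direction depends on the weighting. The median log2 change over all genes was -0.07.

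The Id genes encode inhibitors of basic helix-loop-helix factors and are classical targets that BMP receptors induce through Smad proteins. Id1 was at 5.71, 12.5 and 4.37 normalized UMIs per cell in the 3 uninjured mice and at 0.309, 0.899 and 0.120 in the 3 anti-GFP mice. The groups did not overlap, and Id1 fell by 4.14 on the log2 scale (SE 0.52, adjusted p = 9.73e-09). The uninjured mouse with 9 Goblet1 cells, which was not in the test, had 0.508 and lay inside the anti-GFP range. Id3 was at 4.54, 4.83 and 3.77 in uninjured mice and at 0.515, 0.581 and 0.0601 in anti-GFP mice, again with no overlap. Its log2 change was -3.81 (SE 0.55, adjusted p = 8.19e-07).

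Id2 was at 1.18, 0.560 and 0.641 in uninjured mice and was not detected in any anti-GFP mouse (0 against 16 UMIs, at least 5.35-fold lower, adjusted p = 0.0221). The uninjured mouse with 9 Goblet1 cells, outside the test, also had 0. Smad7, the inhibitory Smad that BMP and TGF-beta signals induce as feedback, was at 4.23, 2.30 and 3.80 in uninjured and at 1.19, 0.597 and 0.393 in anti-GFP mice. It fell by 2.41 (SE 0.56, adjusted p = 0.0144), and the groups did not overlap. Without the uninjured mouse 2 at 48 h its change was -2.24 (adjusted p = 0.0699, range 0.00086 to 0.376), and without the SZN-1326-p mouse 3 at 24 h Id2 had an adjusted p of 0.059 (range 0.0199 to 0.403). Id1 and Id3 were also lower in the rest of the epithelium: Id1 averaged 5.36 ± 0.915 there in uninjured (n = 4) and 1.69 ± 0.480 in anti-GFP mice (n = 6), and Id3 2.32 ± 0.409 and 0.558 ± 0.204. In stroma Id3 was at 7.82 ± 2.24 and 7.48 ± 1.98.

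The promoters of Id2 and Id3 are shown because both genes fell in the same cells. They run from 250 bases before to 50 bases after the start, from RefSeq on GRCm38.p6, at chr12:25096043-25096342 on the minus strand and chr4:136143572-136143871 on the plus strand. Capitals mark GGCGCC, a GC-rich Smad-binding word that reads the same on both strands.
Id2: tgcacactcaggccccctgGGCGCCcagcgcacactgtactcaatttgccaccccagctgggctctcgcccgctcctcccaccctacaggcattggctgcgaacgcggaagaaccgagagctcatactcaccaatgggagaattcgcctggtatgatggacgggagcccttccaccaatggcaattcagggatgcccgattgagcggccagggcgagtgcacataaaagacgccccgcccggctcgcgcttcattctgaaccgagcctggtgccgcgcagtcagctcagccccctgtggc
Id3: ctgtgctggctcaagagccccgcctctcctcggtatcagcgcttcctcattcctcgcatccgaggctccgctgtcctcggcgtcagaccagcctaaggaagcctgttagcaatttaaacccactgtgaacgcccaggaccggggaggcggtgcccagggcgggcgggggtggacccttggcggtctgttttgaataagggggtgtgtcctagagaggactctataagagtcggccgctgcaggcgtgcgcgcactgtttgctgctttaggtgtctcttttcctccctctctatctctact
The word occurs 1 time in the Id2 window and 0 times in that of Id3, and in 3898 of all 32851 promoters of this length (11.9%). These are matches of letters and no binding was measured.

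The genes that fell also included a lectin, a Myc antagonist and a claudin. Lgals3, a lectin of mature surface epithelium, was at 14.9, 27.4 and 20.2 in uninjured and at 1.38, 4.35 and 6.05 in anti-GFP mice (log2 change -2.25, SE 0.46, adjusted p = 0.00211). Mxd1 went from 5.89, 7.74 and 9.80 to 1.96, 2.40 and 0.196 (log2 change -3.15, SE 0.51, adjusted p = 2.64e-05). Cldn23, a barrier-tightening claudin, went from 4.37, 4.99 and 5.75 to 1.14, 0.648 and 0.860 (log2 change -2.36, SE 0.52, adjusted p = 0.00669). None of these 3 genes overlapped between the groups of the test. Outside it, the anti-GFP mouse 1 at 48 h, with 8 Goblet1 cells, had 9.89 of Mxd1, as high as uninjured mice.

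The EGF receptor ligand Areg (1.93 ± 0.614 to 0.679 ± 0.804, SD, n = 3 each) and the NF-kB inhibitor Nfkbia (3.39 ± 0.903 to 0.642 ± 0.168) also fell, with adjusted p = 0.0165 and 0.0416. Areg overlapped between the groups, with 1.59 in an anti-GFP mouse and 1.34 in an uninjured mouse. Its adjusted p was 0.11 without the anti-GFP mouse 2 at 24 h and 0.0629 without the uninjured mouse 2 at 48 h (range 0.000931 to 0.668). Ifrd1, Kmt2a, Ahnak2 and Fmn1 completed the named genes that fell. Ifrd1 overlapped between the groups, with 5.96 in an anti-GFP mouse and 4.18 in an uninjured mouse. Kmt2a was at 1.31 to 1.78 in the tested uninjured mice. Outside the test it was at 1.00, 1.65 and 1.19 in anti-GFP mice and at 0.349 in the uninjured mouse. Summed stress and dissociation genes, which respond to tissue handling, were at 190 to 257 in uninjured and 113 to 146 in anti-GFP mice. Their part in these differences was not tested.

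Among antimicrobial genes, Reg3b, a C-type lectin induced in injured epithelium, was not detected in Goblet1 of any uninjured mouse. It was at 1.39, 6.93 and 4.07 in the 3 anti-GFP mice (103 against 0 UMIs, at least 34.2-fold higher, adjusted p = 4.35e-05). Without the uninjured mouse 1 at 48 h the adjusted p was 0.0697 (range 8.75e-16 to 0.709 over the alternatives). The rest of the epithelium held 1.02 ± 1.40 Reg3b UMIs per cell in uninjured (n = 4) and 78.9 ± 56.5 in anti-GFP mice (n = 6), and stroma 0.00435 ± 0.00682 and 1.32 ± 0.894. The part of free RNA in the Goblet1 level was not tested. Lbp, which presents bacterial lipopolysaccharide to its receptors, was at 3.72, 2.37 and 0.593 in anti-GFP mice and not detected in uninjured ones (80 against 0 UMIs, at least 26.6-fold higher, adjusted p = 0.00171). The anti-GFP values came from 22, 57 and 1 UMIs, so the tested value at 48 h rests on 1 UMI. Outside the test, the anti-GFP mice 1 and 2 at 48 h had 1.05 and 5.86. Over all anti-GFP mice with 5 cells Lbp averaged 0.0473 ± 0.0769 in BasalGoblet, 0.159 ± 0.168 in other epithelium and 0.630 ± 0.114 in stroma, so that 2 of the 3 Goblet1 values lay above all of these means and the value of 0.593 lay just below that of stroma.

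Retnlb, a bactericidal goblet cell product, was at 18.3, 0.552 and 2.11 in uninjured and at 25.3, 64.2 and 15.1 in anti-GFP mice. Its log2 change was 2.40 (SE 0.48, adjusted p = 0.00211), but the groups overlapped and both uninjured mice at 48 h were low. With at least 5 cells per mouse it was 1.02 (adjusted p = 0.422), without the uninjured mouse 1 at 48 h 1.96 (0.0853), and adjusted p ran from 4.03e-12 to 0.983 over the alternatives. Ang4 was at 47.6, 2.12 and 18.8 in uninjured and at 0.472, 20.5 and 0.270 in anti-GFP mice and did not pass.

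The promoter of Reg3b is shown with that of Muc1, described next, since STAT factors downstream of cytokines are known regulators of both. They lie at chr6:78370635-78370934 and chr3:89228806-89229105, both on the plus strand, from RefSeq on GRCm38.p6. Capitals mark TTCNNNGAA, the STAT-binding word, which reads the same on both strands.
Reg3b: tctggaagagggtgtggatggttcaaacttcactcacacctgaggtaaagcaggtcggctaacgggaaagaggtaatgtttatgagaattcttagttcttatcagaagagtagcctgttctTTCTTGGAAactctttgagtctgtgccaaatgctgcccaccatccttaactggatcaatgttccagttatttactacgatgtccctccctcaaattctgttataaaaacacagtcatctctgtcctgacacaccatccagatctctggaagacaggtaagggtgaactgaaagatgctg
Muc1: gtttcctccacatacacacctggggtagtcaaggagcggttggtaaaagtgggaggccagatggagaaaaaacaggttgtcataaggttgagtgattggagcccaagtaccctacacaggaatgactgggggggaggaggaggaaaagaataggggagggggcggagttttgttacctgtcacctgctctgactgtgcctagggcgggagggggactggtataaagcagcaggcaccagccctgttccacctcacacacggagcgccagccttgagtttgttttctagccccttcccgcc
It occurs 1 time in the Reg3b window and 0 times in that of Muc1, and in 2726 of 32851 promoters (8.30%). No binding was measured.

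Muc1, Fut2, Cd38 and Ly6a, genes of the cell surface and its glycans, rose in Goblet1. Muc1, a transmembrane mucin, was at 0.242, 0.0665 and 0.169 in uninjured mice and at 0.991, 3.34 and 5.16 in anti-GFP mice, with no overlap (log2 change 3.57, SE 0.59, adjusted p = 3.65e-05). The anti-GFP mice below 10 cells had 2.13, 3.09 and 4.27. Fut2, which adds terminal fucose to mucin glycans, went from 0.878, 1.15 and 0.703 to 6.54, 8.21 and 3.17 (log2 change 2.32, SE 0.48, adjusted p = 0.00227). Cd38, an NAD-consuming surface enzyme, went from 0.665, 0.243 and 0.0516 to 2.61, 5.33 and 3.49 (3.15, SE 0.54, adjusted p = 6.95e-05). Both groups were apart for these 3 genes in all mice of the test, which the rule for naming genes favors. All 3 were also higher in anti-GFP mice in Goblet2 at 48 h, from 5 to 8 anti-GFP cells a mouse. Fut2 was there at 1.09 and 1.16 in uninjured and at 3.61, 4.63 and 4.70 in anti-GFP mice. Cd38 was there at 0.627 and 0.440 against 2.10, 2.86 and 2.12.

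Ly6a, the Sca-1 antigen that marks injured and fetal-like epithelium, was at 0.0801, 0 and 0 in uninjured mice and at 1.81, 3.62 and 2.43 in anti-GFP mice. This was 48 UMIs against 1, a ratio of 47.9 (95% exact interval 8.19 to 1929, counting error only), with adjusted p = 1.33e-07. It was higher in other cells too, at 5.71 ± 1.80 in other epithelium and 8.28 ± 1.97 in stroma of anti-GFP mice. Tmc6, Bhmt and Ccl9 were the other named genes that rose, with Bhmt and Ccl9 at 0 UMIs in uninjured mice of the test (at least 3.66-fold and 6.98-fold higher). Outside the test, the uninjured mouse with 9 Goblet1 cells had 0.356 of Ccl9, above 0.322 in a tested anti-GFP mouse. The anti-GFP mice below 10 cells had 0, 0.121 and 0.238 of Ccl9. The summed colonocyte markers in Goblet1 were 50.0 to 65.7 in uninjured and 75.8 to 121 in anti-GFP mice, and their part in these rises was not tested.

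The core mucus genes did not pass the test after DSS. Muc2 was at 573, 340 and 540 in uninjured and at 758, 716 and 766 in anti-GFP mice. The groups of the test were apart, but the log2 change of 0.60 had an adjusted p of 0.58 (limma). With the mice below 10 cells they overlapped: the uninjured mouse with 9 cells had 715, and the anti-GFP mice had 1103, 691 and 544. Fcgbp was at a log2 change of -0.12 (adjusted p = 0.946), Zg16 at -0.13 (0.969), Tff3 at 0.75 (0.659) and Clca1 at -0.85 (0.391). By list, 2 of 23 tested mucus components were called, both higher (Muc1 and Retnlb), with a list median of -0.03. Of 26 mucin O-glycosylation genes 1 was called (Fut2, median 0.49), of 11 antimicrobial genes 2 (Reg3b and Retnlb, median 1.12), and of 15 NF-kB and cytokine genes 1, lower (Nfkbia). None of 17 interferon response genes (median 0.55, 14 positive), 29 endoplasmic reticulum folding genes or 20 secretory transcription factors passed in limma. Axin2, Lgr5 and Myc, targets of Wnt signaling, were below the filter on low values.

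Within 21 settings, Id3 stayed past the threshold in 21, Id1, Ly6a and Cd38 in 20, and Muc1, Fut2 and Lgals3 in 19. Id2, Areg, Nfkbia, Tmc6, Bhmt, Ccl9, Kmt2a, Ahnak2 and Fmn1 passed in 6 to 12 of 21, and their calls are the least firm.

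**Figure D4:**
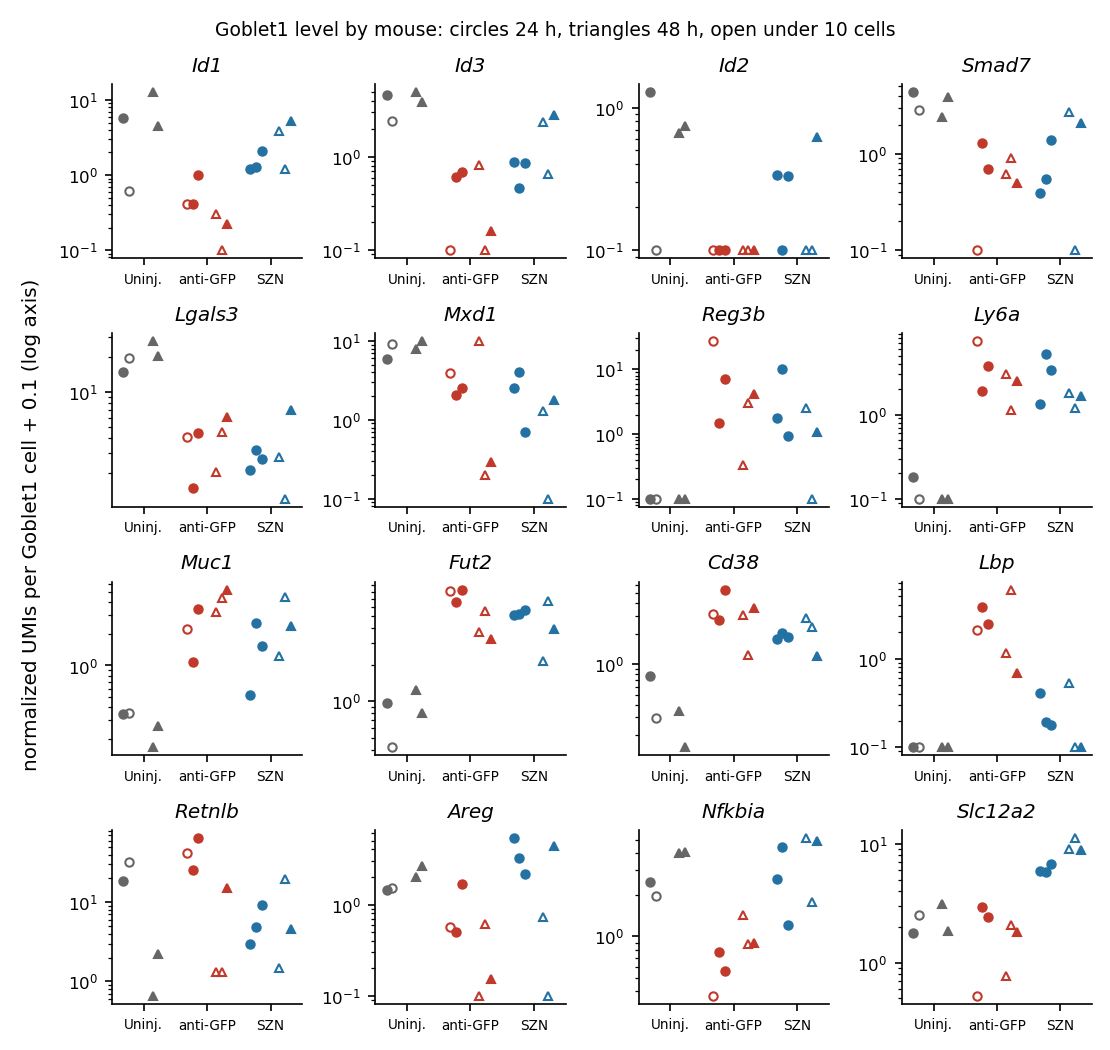
Mean normalized UMIs per Goblet1 cell plus 0.1, on log axes, of 16 genes in each mouse, by group, circles at 24 h and triangles at 48 h; filled points are mice with at least 10 Goblet1 cells and open points those with 1 to 9. Id1, Id3 and Smad7 are low in the tested anti-GFP mice, Muc1, Fut2, Cd38 and Ly6a are high there, and Slc12a2 is highest in SZN-1326-p mice.

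The DSS change was compared between Goblet1 and BasalGoblet within the same mice, as a difference of differences. It differed for 24 of 8397 genes (0.286%, limma, adjusted p under 0.05), more positive in Goblet1 for 10 (0.119%) and more negative for 14 (0.167%). Of the 25 nameable genes that changed in Goblet1, 6 were among them. Ly6a rose more in Goblet1, by a further 3.42 (SE 0.64, adjusted p = 0.00484), and so did Cd38 (2.79, SE 0.54, adjusted p = 0.00484), Lbp (3.35, SE 0.79, 0.035) and Bhmt (3.25, 0.0265). Lgals3 (-1.88, 0.0106) and Ifrd1 (-2.23, 0.00631) fell more. In BasalGoblet Ly6a averaged 0.149 ± 0.0382 in uninjured (n = 4) and 0.509 ± 0.331 in anti-GFP mice (n = 6).

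The fall of Id1 was not shown to differ from that in BasalGoblet (-2.05, adjusted p = 0.0657), where Id1 started low, at 0.927 ± 0.145 in uninjured mice. The same held for Id3 (-1.79, 0.276), Muc1 (1.54, 0.483), Fut2 (0.97, 0.371), Reg3b (0.66, 0.745) and Retnlb (-0.10, 0.954). Genes that differed between the types without being called in Goblet1 included Tcim (-3.25), the lipid synthesis enzyme Fasn (-2.72), the chloride channel Ano1 (-2.69) and Klf2 (-2.29). The count fell to 8 with at least 5 cells per mouse and to 2 with a fit of only the groups compared. It was 16 without the anti-GFP mouse 3 at 24 h, 13 without the SZN-1326-p mouse 3 at 24 h and 15 without the uninjured mouse 2 at 48 h. Against Goblet2, in 11 mice with at least 5 cells of both types, limma called 0 of 8158 genes (0% called), with 492 at an unadjusted p under 0.05, and limma with voom weights called 1. No anti-GFP mouse at 24 h had 5 Goblet2 cells, so this comparison with Goblet2 held 48 h only. The Id1 change was lower in Goblet1 than in Goblet2 by 3.74 there (-3.74, adjusted p = 0.111). For Fut2 and Cd38 the difference from Goblet2 was 0.18 and 1.43 (limma, adjusted p = 0.985 and 0.866). Leaving out the anti-GFP mouse 3 at 48 h gave 5 calls, mouse 1 gave 2, and mouse 2 or the uninjured mouse 2 at 24 h gave 1.

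**Figure D5:**
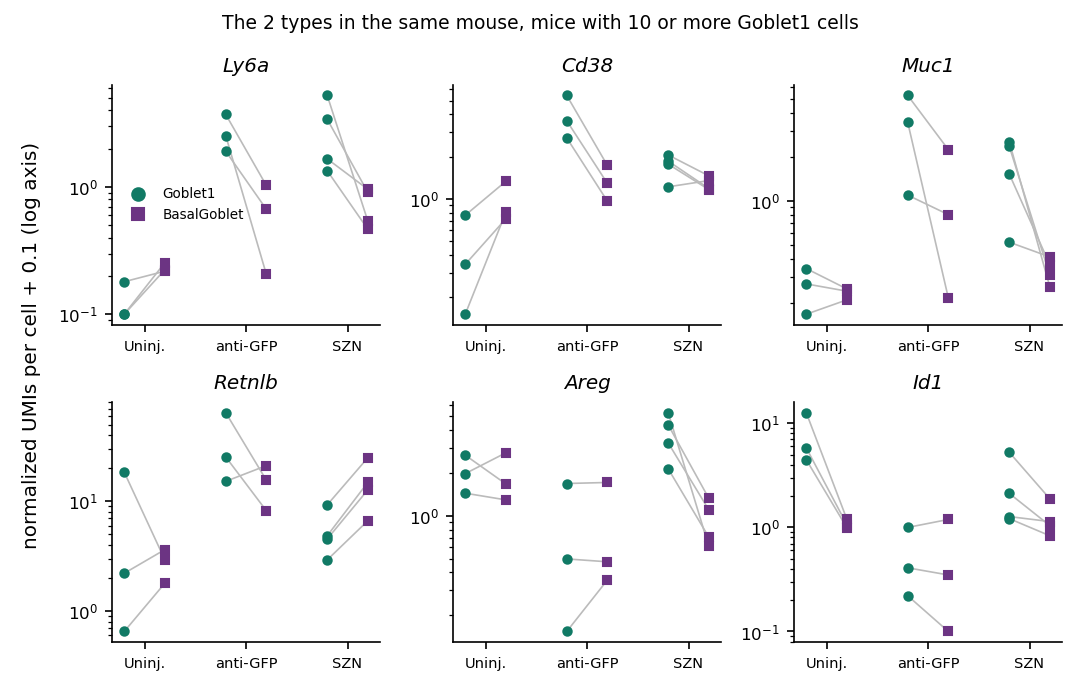
Mean normalized UMIs per cell plus 0.1, on log axes, of Ly6a, Cd38, Muc1, Retnlb, Areg and Id1 in Goblet1 (circles) and BasalGoblet (squares) of the same mouse, joined by a line, for the 10 mice with at least 10 Goblet1 cells, by group. Ly6a and Cd38 are higher in Goblet1 than in BasalGoblet of all 3 anti-GFP mice and lower in all 3 uninjured mice.

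SZN-1326-p was compared with anti-GFP in 4 and 3 mice. Areg, Id1 and Nfkbia rose, and Retnlb and Lbp fell. The anti-GFP mice are also the DSS side of the earlier comparison, so the directions of the 2 comparisons are not independent, and their values are given side by side. Of 7510 genes, 6 passed (0.0799%, limma), 4 higher (0.0533%) and 2 lower (0.0266%), 1 of them an unnamed gene model. At an unadjusted p under 0.05 there were 418, and the median log2 change over all genes was 0.17.

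Areg was at 5.20, 3.15 and 2.04 in the SZN-1326-p mice at 24 h and at 4.25 in that at 48 h, against 0.398, 1.59 and 0.0541 in anti-GFP mice. The groups did not overlap, and Areg rose by 3.34 (SE 0.52, adjusted p = 2.51e-05). Uninjured mice had averaged 1.93 ± 0.614 (n = 3). The SZN-1326-p mice at 48 h with 9 cells and 1 cell, outside the test, had 0.637 and 0.

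Id1 was at 1.11, 1.17 and 2.02 at 24 h and at 5.17 at 48 h in SZN-1326-p mice, above every anti-GFP mouse (at most 0.899). It rose by 2.90 (SE 0.51, adjusted p = 0.000403), and the value of 5.17 lay within the uninjured range. The SZN-1326-p mice at 48 h with 9 cells and 1 cell, outside the test, had 3.76 and 1.10, both below the uninjured mice at 48 h (12.5 and 4.37). Id3 was at 0.790, 0.362 and 0.766 at 24 h and 2.73 at 48 h, and its change of 2.14 did not pass (adjusted p = 0.137). Nfkbia was at 2.48, 4.34, 1.10 and 4.75, against 0.675, 0.460 and 0.792 in anti-GFP mice, and rose by 2.15 (SE 0.50, adjusted p = 0.0486). Id1 and Nfkbia did not overlap between the groups, and Id3 did.

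Retnlb was at 2.83, 4.76, 9.20 and 4.45 in SZN-1326-p mice, all below the anti-GFP values of 25.3, 64.2 and 15.1. It fell by 2.37 (SE 0.46, adjusted p = 0.00439). In the anti-GFP mice below 10 cells, however, it was at 42.1, 1.21 and 1.20, and with at least 5 cells per mouse the change was -1.59 (adjusted p = 0.0961, over a range of 1.3e-10 to 0.987 in all alternatives). Lbp was at 0.313, 0.0911, 0.0805 and 0 in SZN-1326-p mice, with no overlap with anti-GFP mice, and fell by 3.23 (SE 0.75, adjusted p = 0.0486).

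Slc12a2, the basolateral chloride cotransporter that supplies fluid secretion, was at 5.75, 5.66, 6.69 and 8.81 in SZN-1326-p mice and at 2.85, 2.34 and 1.70 in anti-GFP mice. All 6 SZN-1326-p mice, including those with few cells (8.96 and 11.0), lay above all 6 anti-GFP mice. Its change of 1.75 did not pass in the test of both times (adjusted p = 0.181), but with at least 5 cells per mouse it was 2.31 (adjusted p = 5.29e-05). That setting called 19 genes, among them Id1 (3.01) and Id3 (2.25, adjusted p = 0.0213).

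The mucus genes did not pass. Muc2 was at 507, 666, 607 and 397 in SZN-1326-p mice and at 758, 716 and 766 in anti-GFP mice, with a log2 change of -0.63 (adjusted p = 0.838), and Fcgbp at 368, 405, 348 and 274 against 594, 609 and 486 (-0.76, adjusted p = 0.775). Both were lower in every SZN-1326-p mouse of the test, but not with the mice below 10 cells: the anti-GFP mouse 2 at 48 h had 544 of Muc2, and the anti-GFP mice 1 and 2 at 48 h had 395 and 382 of Fcgbp, inside the SZN-1326-p range. Clca1 (-0.66), Spdef (-0.89) and Zg16 (0.13) had adjusted p of 0.838 or more. Of 23 mucus components 1 was called, lower (Retnlb, list median -0.34). None of 22 ribosome biogenesis genes (18 positive, median 0.90), 9 DNA replication genes (8 positive, 0.76), 6 mitosis genes (6 positive, 1.27), 6 Wnt target genes (5 positive, 0.54) or 5 stem and transit-amplifying markers (5 positive, 1.28) passed in limma. Summed stem and transit-amplifying markers in Goblet1 were 2.72 to 3.71 in anti-GFP mice and 6.80 to 11.0 in SZN-1326-p mice, with Ascl2 and Olfm4 at 0. Slc12a2 is itself on this list and held most of these sums. Without it they were 0.855 to 1.19 and 1.14 to 2.15 and overlapped, and their part in the changes was not tested.

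At 48 h the test of both times held 1 anti-GFP and 1 SZN-1326-p mouse. Leaving out the anti-GFP mouse 3 or the SZN-1326-p mouse 3 at 48 h left 1 call, and the change then rested on 24 h alone: Areg was at 1.86 (adjusted p = 0.736 and 0.83) and Id1 at 1.22 (0.993 and 0.991), over adjusted p of 2.36e-07 to 1 and 1.14e-05 to 1 in all alternatives. Leaving out the anti-GFP mouse 3 at 24 h gave 15 calls, and leaving out the SZN-1326-p mouse 2 at 24 h gave 4. Leaving out the 2 SZN-1326-p libraries with high mitochondrial shares gave 1. Nfkbia lost its call without any of 6 mice and Lbp without any of 5, with adjusted p of 0.0536 to 0.83 and 0.0532 to 0.307.

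At 24 h alone, 3 SZN-1326-p and 2 anti-GFP mice gave 1 call (0.0133%, limma): Retnlb fell by 2.99 (SE 0.50, adjusted p = 0.00058), from 44.8 ± 27.5 (SD, n = 2) to 5.60 ± 3.27 (n = 3). There were 344 genes at an unadjusted p under 0.05. Leaving out either uninjured mouse at 48 h gave 2. At 48 h, with at least 5 cells per mouse (2 SZN-1326-p and 3 anti-GFP mice), 4 of 7445 genes passed (0.0537%), 3 higher (0.0403%) and 1 lower (0.0134%). Id1 went from 0.108 ± 0.103 to 4.47 ± 0.995 (log2 change 4.58, SE 0.75, adjusted p = 8.14e-06). Id3 went from 0.261 ± 0.402 to 2.51 ± 0.312 (3.46, SE 0.81, 0.0343), and Slc12a2 from 1.45 ± 0.683 to 8.88 ± 0.105 (2.65, SE 0.61, 0.032). St3gal4, a sialyltransferase that caps O-glycans, fell from 3.77 ± 0.811 to 0.792 ± 1.12 (-3.21, SE 0.67, 0.00559). There were 509 genes at an unadjusted p under 0.05. The count was 9 without the anti-GFP mouse 3 at 48 h and 2 without the SZN-1326-p mouse 2 or 3 at 24 h or the uninjured mouse 1 at 48 h.

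The 24 h and 48 h changes were not shown to differ. The test of that difference in limma called 0 of 7445 genes (0% called), with 319 at an unadjusted p under 0.05, and voom weights called 0. Id1 and Retnlb reached unadjusted p of 0.00179 and 0.00165 in it, both with an adjusted p of 0.831. Leaving out the anti-GFP mouse 3 at 48 h gave 2 calls and the anti-GFP mouse 2 at 24 h gave 1.

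The SZN-1326-p change in Goblet1 differed from that in BasalGoblet for 3 of 8397 genes (0.0357%, limma), with 2 more positive (0.0238%), 1 of them a gene model, and 1 more negative (0.0119%). Areg rose more in Goblet1, by 2.49 (SE 0.53, adjusted p = 0.0371), with BasalGoblet at 0.982 ± 0.713 in anti-GFP and 0.883 ± 0.338 in SZN-1326-p mice (n = 6 each). Retnlb fell more in Goblet1, by 2.13 (SE 0.33, adjusted p = 0.000112). In BasalGoblet of the tested mice Retnlb was at 8.12, 15.5 and 21.1 with anti-GFP and at 6.56, 14.8, 24.9 and 12.6 with SZN-1326-p. Over all mice (n = 6 each) BasalGoblet was at 22.5 ± 15.2 and 14.3 ± 6.46. The anti-GFP mice 1 and 2 at 48 h, outside the test, had 1.21 and 1.20 in Goblet1 and 39.2 and 42.9 in BasalGoblet. With means of deposited log2 values the Retnlb difference reversed. The count was 1 without the uninjured mouse 1, the anti-GFP mouse 2 or the SZN-1326-p mouse 1 or 3 at 24 h, or without mouse 3 of either DSS group at 48 h. The test against Goblet2 held 48 h only, since no anti-GFP mouse at 24 h had 5 Goblet2 cells. It compared 2 SZN-1326-p with 3 anti-GFP mice. In mice with at least 5 cells of both types, 3 of 8158 genes differed (0.0368%): Id1 (3.91, SE 0.76, adjusted p = 0.0412), Id3 (3.66, SE 0.74, 0.0412) and Zg16 (1.46, SE 0.30, 0.0464), all more positive in Goblet1. These passed in 7, 3 and 1 of 20 settings. The count was 7 without the anti-GFP mouse 3 at 48 h and 0 without the anti-GFP mouse 1 or 2 or either uninjured mouse at 48 h, and 1 without either uninjured mouse at 24 h.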

How the data were processed

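Single-cell RNA-seq libraries (10x Genomics v3) of 16 mice were analysed. Reads were processed with Cell Ranger 3.0.2 on mm10, per the submitters' processing notes. The matrix deposited by the authors holds log2 values of UMIs divided by a per-cell size factor, plus 1, for 16039 genes and 22717 cells. Undoing the log and the factor gave whole UMIs for 100% of 60867816 entries (tolerance 1e-06). The deposited annotation gives other information as text labels: the library, condition, time and cell type of each cell. Its condition name for SZN-1326-p is SWAP, taken as SZN-1326-p because the libraries with that name are the only ones left for it. The size factor method, cell filters and doublet removal are not given in the sources used here.

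For each mouse, the mean of un-logged normalized UMIs per Goblet1 cell was taken. Mice with at least 10 cells entered. The genes kept had a mean of at least 0.1, and log2(mean + 0.1) was fitted with limma 3.58.1 (R 4.3.3, trend and robust options, all 6 groups of arm and time in one model, 4 residual degrees of freedom, Benjamini-Hochberg adjustment). Fold changes on this scale understate low genes. Contrasts average the times at which both groups had a mouse in the fit, and each mouse is a replicate. Both tests against Goblet2 had such mice at 48 h only. Contrasts that could not be fitted at 10 cells (SZN-1326-p at 48 h, the time difference, and both against Goblet2) used at least 5 cells. Differences between goblet types were taken within mouse. Shares used exact permutation. Folds against 0 use a floor of 3 UMIs over the group. Descriptions and figures used Python 3.11.15, numpy 2.4.6, scipy 1.17.1 and pandas 2.3.3. The fit was checked on simulated counts with the same spread setting for every gene and no differences between libraries other than depth. That check does not cover the library differences described above. Named genes were up to 12 per direction past the threshold with at least 0.5 normalized UMIs in the higher arm, plus 26 chosen goblet and Wnt genes, and up to 15 per direction at 1 normalized UMI between types. The former also needed every mouse of 1 arm on the same side of the other arm's mean. Between types they needed the same direction in every mouse. The share of all tested genes without overlap between groups is not given here. The members and the 25 gene lists were chosen with earlier results of these data known. Gene models, ribosomal protein, mitochondrial, immunoglobulin and hemoglobin genes were counted, not named. P-values of limma rest on the spread between mice of the same arm and time, moderated toward a trend shared over genes. Groups with 1 mouse add nothing to that spread. Intervals cover counting error only.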

Additional observations from a re-analysis of the deposited data

Results flagged for a closer look

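The change with DSS differed between Goblet1 and BasalGoblet for 24 of 8397 genes by the test of the difference itself (limma, adjusted p under 0.05), with Ly6a, Cd38, Lbp and Bhmt more positive in Goblet1. The change with SZN-1326-p differed between Goblet1 and BasalGoblet for 3 genes, Areg, Retnlb and 1 gene model. It differed between Goblet1 and Goblet2 for 3 genes, Id1, Id3 and Zg16, at 48 h only and in mice with at least 5 cells of both types.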

How the results depend on the processing

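Counts of called genes are given in the order DSS, SZN-1326-p, SZN-1326-p at 24 h, at 48 h, time difference, DSS against BasalGoblet, DSS against Goblet2, SZN-1326-p against BasalGoblet, SZN-1326-p against Goblet2. As reported they were 28, 6, 1, 4, 0, 24, 0, 3 and 3. With no filter on low genes they were 2, 0, 0, 1, 0, 0, 0, 0 and 0, with a pseudocount of 0.01 they were 9, 3, 0, 1, 0, 2, 0, 4 and 0, and with 0.5 they were 26, 4, 2, 2, 0, 37, 0, 16 and 0. Means of the deposited log2 values gave 23, 2, 1, 0, 0, 33, 3, 7 and 0, median-of-ratios scaling 25, 5, 2, 2, 0, 33, 0, 1 and 0, and a fit of only the arms compared 22, 7, 2, 4, 0, 2, 0, 1 and 2. A library term gave 45, 8, 1, 4, 0, 24, 1, 4 and 1, and leaving out cells with other-lineage markers 28, 6, 1, 3, 0, 25, 0, 3 and 0. Without the SZN-1326-p libraries of high mitochondrial share the counts were 37, 1 and 1 for DSS, SZN-1326-p and 24 h, and 22, 0 and 2 for the 2 DSS differences and SZN-1326-p against BasalGoblet. With at least 5 cells DSS gave 35, SZN-1326-p 19, DSS against BasalGoblet 8 and SZN-1326-p against BasalGoblet 1. Voom weights on UMI sums gave 20, 2, 4, 3, 0, 1, 1, 0 and 0. Voom weights with at least 5 cells, chosen after seeing the data, gave 31, 27, 0, 3, 0, 2, 1, 1 and 0. Leaving out each mouse in turn, where a fit remained possible, gave 21 to 45, 1 to 15, 1 to 2, 2 to 9, 0 to 2, 13 to 31, 0 to 5, 1 to 3 and 0 to 7. These ranges hold 8, 10, 8, 13, 13, 8, 9, 10 and 9 fits, since some removals left fewer than 2 mice in a group. The DSS test and its difference from BasalGoblet could not be fitted without the uninjured mouse 1 at 24 h or the anti-GFP mouse 3 at 48 h.

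The deviations of same-numbered mice from their group means had correlations of -0.22 to 0.38 over 12 pairs, 6 of them over 0.1. Since not every pair was over 0.1 and no label ties the numbers to a shared cage or day, the numbers were not taken to pair the mice. A replicate block gave 12, 7, 2, 3, 0, 5, 8, 4 and 1 calls, and log2 share differences of 0.54 for DSS (exact permutation p = 0.5) and -0.74 for SZN-1326-p (p = 0.125).

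The share of all cells reversed the DSS difference to -0.22, and no other share setting did. Without cells over 30% mitochondrial UMIs the differences were 0.84 and -0.50, and leaving out each mouse gave 0.46 to 1.46 and -1.09 to -0.25. With means of deposited log2 values Retnlb reversed, to -0.12 after DSS and to 0.58 for SZN-1326-p against BasalGoblet. For single named genes, 2756 recomputed values kept their direction and side of the threshold, 378 lost the call, 63 gained it and 2 reversed, and the causes were not tested. At least 20 cells per mouse, and leaving out cells over 30% mitochondrial UMIs, left too few mice for most gene tests. Goblet1 had 1 to 38 cells per mouse, and a call rests on as few as 10 cells in a mouse.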

Other observations

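Reg4, a goblet and enteroendocrine secreted lectin, was at 2.48, 5.50 and 0 normalized UMIs per cell in the uninjured mice with at least 10 Goblet1 cells and was not detected in any of the 6 anti-GFP mice. In SZN-1326-p mice it was at 0.194, 0.397 and 0 at 24 h, and at 48 h at 0, 8.28 in the mouse with 1 cell, and 12.8. Neither difference passed (adjusted p = 0.464 and 0.775, limma). In UMIs, anti-GFP mice held 0 against 95 in uninjured mice (at least 31.8-fold lower) and 0 against 274 in SZN-1326-p mice (at least 44.8-fold higher there), nearly all of the latter from the mouse 3 at 48 h. Summed enteroendocrine markers in Goblet1 were 0.864 to 1.40 in uninjured, 0 to 0.379 in anti-GFP and 0.487 to 1.37 in SZN-1326-p mice, with Neurod1, Scg2, Fev and Isl1 at 0, and their part in the Reg4 levels was not tested.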
